A study of Mus musculus with 51 samples.

Results

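Testes of Dmrt1+/- mice, which carry 1 null and 1 working copy of the gene, were compared with testes of Dmrt1+/+ (wild-type) mice at postnatal day 28 (P28), to ask whether loss of a single copy alters the messenger RNA of the testis. The comparison used 6 of the 51 samples of the series and of its 30 mRNA-seq libraries, 3 of each genotype, chosen by the genotype and age in their labels. All mice were of mixed 129Sv and C57Bl/6J background, and the gonads were XY. The null allele was constitutive, so every somatic cell and spermatogonium of a Dmrt1+/- testis lacks 1 copy. Each library was made from polyadenylated RNA of whole gonads, and the labels do not say whether a library holds 1 animal or several, so that p-values measure the spread between these libraries. Gonads of Dmrt1-/- mice (both copies null) and Dmrt1 R111G/+ mice (1 copy with a point mutation in the DNA-binding region), 3 libraries each, entered the fit to help estimate the spread. They thereby also took part in the filter on low counts and in the scaling.

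DMRT1 is a transcription factor of the DM domain family that works in the somatic and the germ cell compartment of the testis. In Sertoli cells, the somatic cells that line the seminiferous tubule and nurse the germ cells, it keeps male identity and holds back genes of granulosa cells, their ovarian counterpart. In spermatogonia it restrains the entry into meiosis. At P28 the first wave of germ cells has reached the spermatid stages, so a whole testis holds spermatogonia, spermatocytes and round and elongating spermatids beside Sertoli, Leydig, peritubular myoid, stromal, endothelial and immune cells.

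The wild-type libraries held 8921859 to 10891612 counts and the Dmrt1+/- libraries 10649748 to 12697366 counts. Dmrt1+/- replicate 3 stood apart from the other 5 libraries: it had the lowest level of all 6 at 36.7% of the tested genes and the highest at 22.9%, where the other libraries were lowest at 7.08% to 18.7%. Results are therefore given with and without it. Levels are CPM, counts scaled to a library total of 1000000 with trimmed mean of M values factors, and log2 fold changes are Dmrt1+/- minus wild-type from edgeR's quasi-likelihood test, fitted over all genes of the 12 P28 libraries. Where a gene is described as higher or lower at an unadjusted p, it did not pass the threshold for a call. A gene was called differentially expressed at an adjusted p below 0.05 and a change of more than 2-fold.

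Dmrt1 messenger RNA did not differ between the genotypes beyond the spread of the libraries. The gene (GRCm38, chromosome 19 from 25505618 to 25604329) was at 34.4, 43.5 and 37.1 CPM in wild-type testes and 36.2, 29.2 and 59.1 CPM in Dmrt1+/- testes, and at 0.435, 0.396 and 0.161 CPM (4, 4 and 2 counts) in Dmrt1-/- gonads. Dmrt1+/- replicate 1 lay within the wild-type range, replicate 2 below it and replicate 3 above it, so the groups overlapped. The log2 fold change was 0.12 (95% interval -0.44 to 0.67, quasi-likelihood adjusted p = 0.792 in edgeR, and exact two-sided permutation test of the levels, p = 0.9, where 0.1 is the smallest that 3 libraries against 3 allow). Without replicate 3 it was -0.23 (95% interval -0.72 to 0.26), and neither interval reached a log2 fold change of -1. Both intervals hold for this scaling only. With factors set on Sertoli markers the log2 fold change was -0.57, or -0.68 without replicate 3. Gene-level counts cannot tell reads of the working copy from any reads of the null copy.

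Relative to Sertoli markers, Dmrt1 was lower in each Dmrt1+/- testis. Per 1000 CPM summed over the 30 Sertoli markers, Dmrt1 was at 16.1, 20.5 and 18.8 CPM in wild-type testes and at 13.3, 9.73 and 14.2 CPM in Dmrt1+/- testes. All 3 Dmrt1+/- values lay below all wild-type values, and the mean was 0.671 of the wild-type mean, or 0.623 without replicate 3. Per 1000 CPM of the markers of undifferentiated spermatogonia, which express Dmrt1 as well, the wild-type values were 208, 248 and 230 CPM and the Dmrt1+/- values 203, 178 and 323 CPM, which overlapped (mean ratio 1.03, or 0.833 without replicate 3). Per markers of differentiating spermatogonia and of early meiosis the groups overlapped too, with mean ratios of 1.26 and 1.30, or 0.976 and 0.892 without replicate 3, so the direction depended on the markers and on that library. These ratios are descriptions, since both the numerator and the marker sums differ between the libraries.

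**Figure D1:**
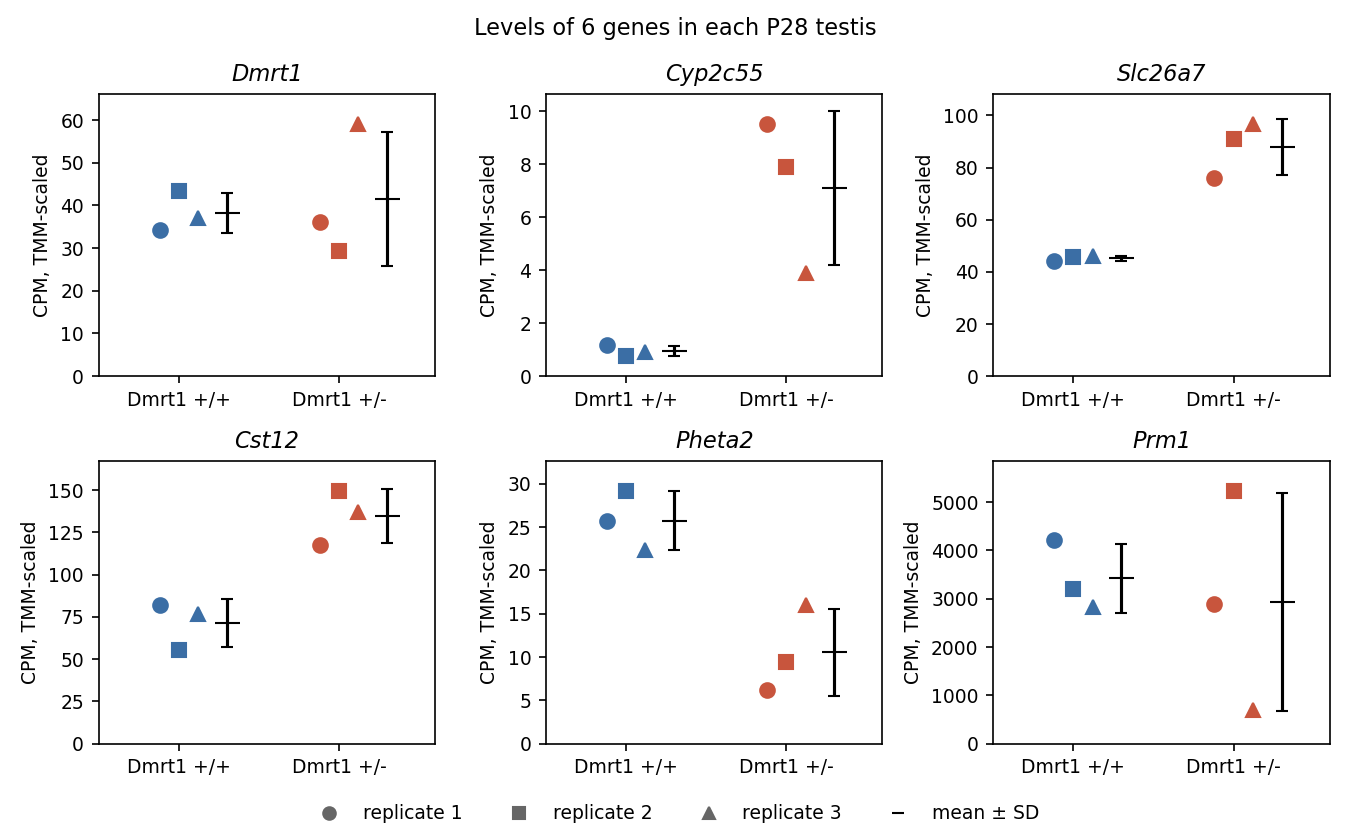
Levels in CPM (y axes, linear, from 0) of Dmrt1, Cyp2c55, Slc26a7, Cst12, Pheta2 and Prm1 in each P28 testis, with wild-type (+/+) libraries in blue, Dmrt1+/- libraries in red, symbols for replicates and bars for the mean and SD (n = 3). Cyp2c55, Slc26a7, Cst12 and Pheta2 do not overlap between the genotypes, Dmrt1 does, and Prm1 is low only in Dmrt1+/- replicate 3. Slc26a7 and Pheta2 were chosen for a small p and no overlap.

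Across the transcriptome, no gene passed the threshold with all 3 Dmrt1+/- testes. Of 20952 genes tested, 0 were called higher and 0 lower (0% of the genes in each direction), and the smallest adjusted p of edgeR's quasi-likelihood test was 0.173. At an unadjusted p below 0.05 there were 3769 genes (18.0%), of which 2444 (11.7%) were higher and 1325 (6.32%) lower in Dmrt1+/- testes. DESeq2 called 28 genes higher and 5 lower in the same libraries, with Ces2g, Lrrc75b, Pyroxd2, Igfbp3, Dnm3os, Lhcgr, Lin28a and Trf among the former and Noxo1 and Pheta2 among the latter. The split of the unadjusted calls depended on the scaling: 64.8% of them were higher with the scaling used here, 44.9% with DESeq2's size factors in edgeR, 92.2% with library size alone, 4.38% with factors set on macrophage, endothelial, myoid and stromal markers and 0.617% with factors set on Sertoli markers. These scalings put the median log2 fold change of all genes at -0.05, -0.13, 0.11, -0.46 and -0.67, so the directions of gene lists are read against that median. For a gene at 5 CPM or more, the median standard error of the log2 fold change was 0.23.

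Leaving out Dmrt1+/- replicate 3 gave 3 called genes among 21646, 1 higher (0.00462%) and 2 lower (0.00924%), while 1739 genes (8.03%) had an unadjusted p below 0.05, 1228 higher (5.67%) and 511 lower (2.36%). The spread within the genotypes differed: the biological coefficient of variation of wild-type testes was 17.3%, that of the 3 Dmrt1+/- testes 31.0% and that of Dmrt1+/- replicates 1 and 2 alone 22.5%. The median SD of log2 CPM over 14214 genes at 5 CPM or more was 0.20 in wild-type testes and 0.29 in Dmrt1+/- testes. The median log2 fold change over all genes was -0.05 with and -0.01 without replicate 3.

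The called gene that rose was Cyp2c55, a cytochrome P450 of the drug- and fatty acid-oxidizing 2C family, on chromosome 19 from 39007019 to 39042693. It was at 1.177, 0.774 and 0.904 CPM in wild-type testes and 9.53, 7.89 and 3.88 CPM in Dmrt1+/- testes. Every Dmrt1+/- testis was above every wild-type testis, and replicate 3 was the lowest of the 3. The log2 fold change was 3.16 without replicate 3 (SE 0.39, quasi-likelihood adjusted p = 0.0316) and 2.87 with it (SE 0.44, adjusted p = 0.173). In Dmrt1-/- gonads the mean was 0.0631 CPM. The 250 bases before its start (RefSeq, GRCm38.p6, plus strand, chr19:39006769-39007018) are shown because this was the only called gene that encodes a protein, with a TATA box core, TATAAA, in capitals 29 bases before the start.
Cyp2c55: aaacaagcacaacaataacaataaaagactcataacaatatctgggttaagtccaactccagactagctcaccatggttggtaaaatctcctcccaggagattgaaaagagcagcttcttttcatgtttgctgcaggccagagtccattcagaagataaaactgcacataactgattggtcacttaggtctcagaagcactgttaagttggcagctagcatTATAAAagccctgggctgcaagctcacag
The same core was present, counting both strands, in 12.4% of 32851 mouse promoters over these 250 bases.

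A DM domain core motif, ACAATGT, was searched on both strands of the promoters (250 bases before to 50 after the start) of Dmrt1 and the called or top-ranked genes, 29 in all, of which 21 had an entry. It occurred in 1 of them, that of Tns3 (chr11:8664486-8664785, minus strand), and in 2.96% of all promoters of the same length. The match in Tns3, which encodes the focal adhesion protein tensin 3, began 143 bases before the start and read ACATTGT on the gene's strand, shown here with 10 bases on each side and the motif in capitals.
Tns3: gaaacgcaggACATTGTtaggaagatg

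Both called genes that fell are processed pseudogenes, Gm9050 on the X chromosome and Gm7887 on chromosome 6, whose reads may be shared with near-identical copies, so their values are uncertain. Gm9050 had 116, 57 and 52 counts in wild-type testes, 1 and 1 in Dmrt1+/- replicates 1 and 2, and 47 in replicate 3. In CPM, replicate 3 was at 3.97, below the wild-type testes at 12.4, 7.35 and 6.72 but far above the other 2 Dmrt1+/- testes. The ratio of wild-type testes to those 2, scaled by library size and trimmed mean of M values factors, was 94.9 (95% interval 26.0 to 788, counting error only). Gm7887 was measured at 4.82, 6.83 and 5.30 CPM in wild-type testes and 0.612, 0.947 and 4.31 CPM in Dmrt1+/- testes, with the same division of the libraries (log2 fold change -2.86, SE 0.38, quasi-likelihood adjusted p = 0.0316 without replicate 3). With all 3 Dmrt1+/- testes, neither passed the threshold.

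Among protein-coding and named RNA genes at 5 CPM or more, no called or top-ranked gene changed the sign of its log2 fold change under any alternative setting. These genes were picked for a small p in the same libraries, which made a kept sign likely from the outset. Top-ranked genes were also picked for no overlap between the groups compared, so their gaps are no separate result. Slc26a7, an anion exchanger of the chloride and bicarbonate family, stood at 44.2, 45.5 and 46.1 CPM in wild-type testes and 75.9, 90.9 and 96.8 CPM in Dmrt1+/- testes (log2 fold change 0.96, SE 0.16, adjusted p = 0.173, edgeR). The wild-type values lay close together and every Dmrt1+/- value was well above them. Its mean in Dmrt1-/- gonads was 412 CPM. Ces2g, a carboxylesterase, was at 4.17, 3.10 and 4.26 CPM in wild-type testes and 9.09, 9.47 and 12.1 CPM in Dmrt1+/- testes (log2 fold change 1.41, SE 0.23, adjusted p = 0.173). Lrrc75b, a leucine-rich repeat protein, was measured at 6.53, 7.61 and 6.97 CPM in wild-type testes and 18.9, 15.4 and 22.9 CPM in Dmrt1+/- testes (log2 fold change 1.44). Neither gene overlapped between the genotypes, which the choice of top-ranked genes required.

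Pyroxd2, a mitochondrial oxidoreductase gene 17.2 Mb from Dmrt1 on chromosome 19, stood at 3.64, 1.42 and 1.16 CPM in wild-type testes and 7.17, 10.3 and 13.4 CPM in Dmrt1+/- testes. Its wild-type values varied, with replicate 1 the highest, yet all lay below the lowest Dmrt1+/- value (log2 fold change 2.28, SE 0.40). Plat, the tissue plasminogen activator that Sertoli cells secrete, was at 11.8, 13.5 and 12.5 CPM in wild-type testes and 26.4, 20.5 and 28.7 CPM in Dmrt1+/- testes (log2 fold change 1.00). Igfbp3, which binds insulin-like growth factors, was measured at 2.78, 3.10 and 2.97 CPM in wild-type testes and 6.56, 7.05 and 18.3 CPM in Dmrt1+/- testes. Replicate 3 was far above the other Dmrt1+/- testes, and the log2 fold change was 1.86 with it and 1.20 without. Fxyd6 (a modulator of the sodium pump) and Abcd3 (a peroxisomal transporter), also chosen for no overlap, had log2 fold changes of 0.96 and 0.71. Tns3 and Dnm3os (a non-coding RNA that carries microRNA genes), chosen for no overlap without replicate 3, were at 1.07 and 1.10. None of these genes passed the threshold.

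Genes with the smallest p in the lower direction included 2 genes of chromosome 15. Pheta2, an adaptor of endosomal traffic, stood at 25.7, 29.1 and 22.3 CPM in wild-type testes and 6.21, 9.47 and 16.05 CPM in Dmrt1+/- testes (log2 fold change -1.28, or -1.72 without replicate 3, with adjusted p = 0.0882). Ttll1, part of the tubulin polyglutamylase that sperm tails need, was at 13.2, 17.5 and 15.4 CPM in wild-type testes and 8.04, 5.36 and 8.53 CPM in Dmrt1+/- testes (log2 fold change -1.06). Both sets of Dmrt1+/- values lay below the wild-type values, as the choice of these genes required. Necab2, a calcium-binding protein gene, was measured at 10.1, 10.4 and 9.95 CPM in wild-type testes and 4.63, 4.21 and 3.63 CPM in Dmrt1+/- testes, close together within each genotype (log2 fold change -1.29).

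Pdk2, a kinase that slows pyruvate oxidation, stood at 123, 166 and 121 CPM in wild-type testes and 92.8, 77.0 and 73.7 CPM in Dmrt1+/- testes (log2 fold change -0.75). Gata2, a transcription factor, had log2 fold change -0.82, Noxo1, an organizer of NADPH oxidase, -1.05 and Tnfaip2 -0.88. Plekha4 was at -1.12, Kank3 at -0.56 and Flt4, a receptor for vascular endothelial growth factors, at -1.05. None of these genes overlapped between the genotypes, which their choice required. Plekhm2, which links lysosomes to kinesin, was at -0.63. Runx3, a transcription factor, overlapped, since replicate 3 reached the lowest wild-type level, with 14.1, 15.6 and 12.7 CPM in wild-type testes and 4.28, 7.36 and 12.7 CPM in Dmrt1+/- testes. Gaps between the genotypes were common in this comparison: 2449 genes (11.7%) had all Dmrt1+/- values above and 2881 (13.8%) all below the wild-type values.

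Sertoli markers stood higher in each Dmrt1+/- testis. All 30 of the listed genes were tested, and 30 had a positive log2 fold change (29 without replicate 3). At an unadjusted p below 0.05, 22 were higher and 0 lower (8 and 0 without replicate 3), against 11.7% and 6.32% of all genes (5.67% and 2.36% without it), and 0 passed the threshold. The median log2 fold change was 0.66, against -0.05 over all genes, and 0.43 without replicate 3. Summed over the list, the level was 2131, 2120 and 1969 CPM in wild-type testes and 2721, 3005 and 4170 CPM in Dmrt1+/- testes, so that the groups did not overlap and replicate 3 was the highest. In whole tissue, a change in the number of cells of a type and a change in RNA per cell cannot be told apart.

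Cst12, a cystatin made by Sertoli cells, was at 82.0, 55.2 and 76.5 CPM in wild-type testes and 117, 149 and 137 CPM in Dmrt1+/- testes (log2 fold change 0.92, SE 0.19, adjusted p = 0.173, edgeR). Ctsl, the protease cathepsin L that Sertoli cells secrete, was measured at 279, 193 and 272 CPM in wild-type testes and 385, 475 and 405 CPM in Dmrt1+/- testes (log2 fold change 0.77). For both, replicate 3 was not the highest Dmrt1+/- testis. Kitl, the stem cell factor that signals to spermatogonia, stood at 123, 95.3 and 101 CPM in wild-type testes and 149, 179 and 203 CPM in Dmrt1+/- testes (log2 fold change 0.73). Trf, the iron carrier transferrin, was at 10.3, 6.45 and 8.40 CPM in wild-type testes and 11.3, 21.6 and 28.6 CPM in Dmrt1+/- testes (log2 fold change 1.29, or 0.95 without replicate 3), with Dmrt1+/- replicate 1 only just above the highest wild-type testis.

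Sox9, the transcription factor that starts and keeps Sertoli cell fate, was measured at 30.7, 41.9 and 34.4 CPM in wild-type testes and 56.3, 42.4 and 75.8 CPM in Dmrt1+/- testes (log2 fold change 0.71, or 0.46 without replicate 3, adjusted p = 0.234 in edgeR). The groups did not overlap, but the lowest Dmrt1+/- and the highest wild-type value nearly met. Sox8, its relative, stood at 21.9, 27.7 and 24.7 CPM in wild-type testes and 32.9, 26.8 and 46.7 CPM in Dmrt1+/- testes and overlapped. Amh, the hormone of immature Sertoli cells, was at 4.60, 8.90 and 4.39 CPM in wild-type testes and 7.17, 6.21 and 21.3 CPM in Dmrt1+/- testes. Its log2 fold change was 0.96 with and 0.17 without replicate 3, the only testis outside the wild-type range.

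Junction proteins seal Sertoli cells into the blood-testis barrier and tie them to germ cells. Of 13 genes tested for tight junctions and Sertoli contacts, 5 were higher and 0 lower at an unadjusted p below 0.05 (5 and 0 without replicate 3). Over all genes 11.7% were higher and 6.32% lower (5.67% and 2.36% without it). In this list 11 log2 fold changes were positive and 2 negative, and 1 gene was lower in every Dmrt1+/- testis. Without replicate 3, 9 were positive. The median log2 fold change was 0.57 (0.43 without replicate 3). F11r, the junctional adhesion molecule A, was measured at 31.2, 27.7 and 31.9 CPM in wild-type testes and 50.2, 45.7 and 66.7 CPM in Dmrt1+/- testes (log2 fold change 0.84, SE 0.17, adjusted p = 0.173, edgeR). Jam2, a second member of that family, stood at 43.6, 40.6 and 40.6 CPM in wild-type testes and 64.0, 67.7 and 83.2 CPM in Dmrt1+/- testes (log2 fold change 0.78), and Gja1, the gap junction protein connexin 43, at 156, 120.3 and 139 CPM in wild-type testes and 187, 203 and 237 CPM in Dmrt1+/- testes (log2 fold change 0.59). None of the 3 overlapped between the genotypes. Cldn11, the claudin of the blood-testis barrier, was at 129, 136 and 149 CPM in wild-type testes and 213, 161 and 292 CPM in Dmrt1+/- testes (log2 fold change 0.69, or 0.43 without replicate 3), with replicate 3 the highest of the Dmrt1+/- testes.

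Of the genes of inhibin, activin and gonadotropin reception, 8 of 13 were higher and 0 lower at an unadjusted p below 0.05 (2 and 0 without replicate 3). Over all genes 11.7% were higher and 6.32% lower (5.67% and 2.36% without it). In this list 11 log2 fold changes were positive and 2 negative, with a median of 0.64 (0.39 without replicate 3). Inha, the alpha subunit of inhibin, which Sertoli cells send to the pituitary, was measured at 194, 202 and 141 CPM in wild-type testes and 230.3, 267 and 509 CPM in Dmrt1+/- testes. Replicate 3 was far above the other Dmrt1+/- testes, and the log2 fold change was 0.91 with it and 0.47 without. Inhba, the beta A subunit, stood at 7.81, 4.77 and 5.04 CPM in wild-type testes and 8.39, 12.9 and 9.80 CPM in Dmrt1+/- testes (log2 fold change 0.81). Fshr, the receptor for follicle-stimulating hormone on Sertoli cells, was at 5.56, 3.87 and 6.20 CPM in wild-type testes and 5.77, 10.1 and 11.99 CPM in Dmrt1+/- testes and overlapped in replicate 1.

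Of 8 androgen-responsive Sertoli genes tested, 5 were higher and 0 lower at an unadjusted p below 0.05 (2 and 0 without replicate 3). Over all genes 11.7% were higher and 6.32% lower (5.67% and 2.36% without it). In this list 7 log2 fold changes were positive and 1 negative, with a median of 0.60 (0.41 without replicate 3). Gpd1, a glycerol phosphate dehydrogenase, was measured at 50.9, 54.0 and 37.3 CPM in wild-type testes and 59.5, 88.5 and 99.99 CPM in Dmrt1+/- testes (log2 fold change 0.80). Drd4, a dopamine receptor gene, stood at 19.6, 28.4 and 18.1 CPM in wild-type testes and 33.0, 27.7 and 68.9 CPM in Dmrt1+/- testes and overlapped, with a log2 fold change of 0.97, or 0.46 without replicate 3.

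**Figure D2:**
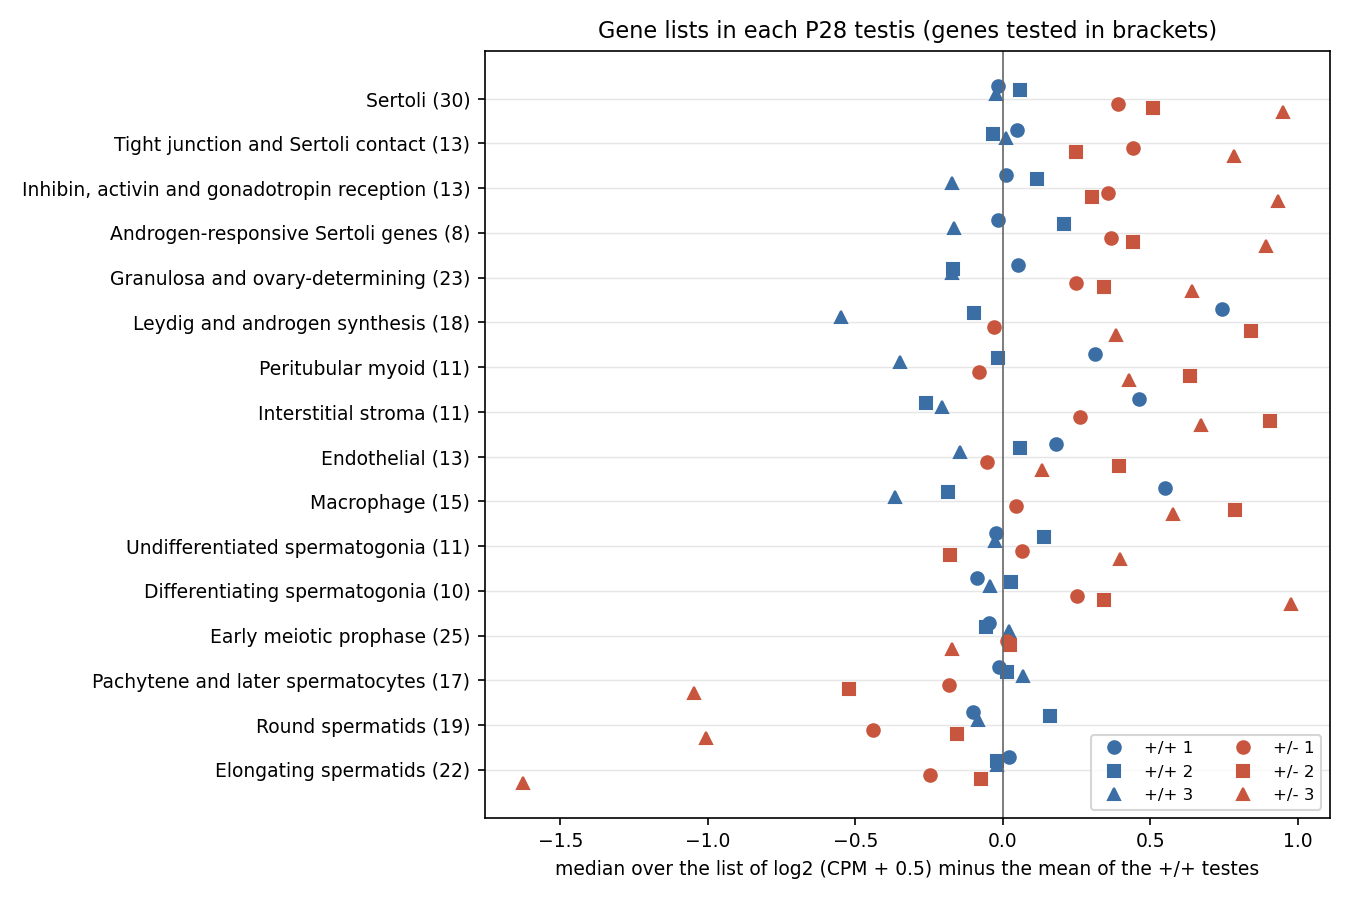
Each row is a gene list, and each point is 1 testis, placed at the median over the list of its log2 (CPM + 0.5) minus the wild-type mean of each gene. Blue points are wild-type (+/+) and red points Dmrt1+/- testes, with symbols for replicates. Sertoli lists lie to the right in all 3 Dmrt1+/- testes, Leydig, myoid, stromal and macrophage lists mix the genotypes, and the 3 lists from pachytene spermatocytes on lie to the left, with Dmrt1+/- replicate 3 farthest out.

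The defining transcripts of granulosa cells were near 0 in Dmrt1+/- and wild-type testes alike. Foxl2, the transcription factor that keeps ovarian fate, had 6, 2 and 2 counts in wild-type and 8, 1 and 6 counts in Dmrt1+/- testes, and Esr2, the estrogen receptor beta, 1, 4 and 1 against 2, 1 and 5 counts. Means in Dmrt1-/- gonads were 155 CPM and 16.8 CPM. A difference between the testes was not detectable at this depth for either gene. Nr5a2, an orphan nuclear receptor that granulosa cells need, was at 1.82, 1.42 and 1.29 CPM in wild-type testes and 4.20, 2.63 and 3.38 CPM in Dmrt1+/- testes (log2 fold change 1.16, SE 0.34, adjusted p = 0.185 in edgeR), and at a mean of 185 CPM in Dmrt1-/- gonads.

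The whole granulosa and ovary-determining list, 23 genes, had 9 higher and 0 lower at an unadjusted p below 0.05 (4 and 0 without replicate 3). Over all genes 11.7% were higher and 6.32% lower (5.67% and 2.36% without it). In the list 18 log2 fold changes were positive and 5 negative, and 15 were positive without replicate 3. The list's median was 0.58 (0.34 without replicate 3), and no gene of it passed the threshold. Its sum was 278, 311 and 247 CPM in wild-type and 325, 350.5 and 540.0 CPM in Dmrt1+/- testes. Kctd14, named for a potassium channel tetramerization domain, was measured at 22.8, 20.0 and 27.6 CPM in wild-type testes and 31.5, 40.2 and 45.1 CPM in Dmrt1+/- testes and at 489 CPM in Dmrt1-/- gonads. Several genes of this list, Inhba among them, are also made by testis cells, and how much other cells gave to the list's sum was not tested.

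Markers of the interstitium, the tissue between the tubules, overlapped between the genotypes. Wild-type replicate 1 and Dmrt1+/- replicate 2 were the highest of their groups in the Leydig, peritubular myoid, stromal, endothelial and macrophage lists. For the 18 Leydig and androgen synthesis genes the library medians, as log2 differences from the wild-type mean, were 0.74, -0.10 and -0.55 in wild-type testes and -0.03, 0.84 and 0.38 in Dmrt1+/- testes, which overlapped. At an unadjusted p below 0.05, 3 were higher and 0 lower (1 and 0 without replicate 3), close to the 11.7% of all genes that were higher (5.67% without it), with a median log2 fold change of 0.32 (0.42 without it).

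Lhcgr, the receptor through which luteinizing hormone drives androgen synthesis, was the 1 gene of this list without overlap, at 117, 124 and 68.7 CPM in wild-type testes and 231, 181 and 301 CPM in Dmrt1+/- testes (log2 fold change 1.20, SE 0.31, adjusted p = 0.179, edgeR). Each Dmrt1+/- testis was above each wild-type testis, and wild-type replicate 1, the highest in the rest of the list, was not the highest here. Star, which brings cholesterol to the mitochondrion, stood at 275, 117 and 77.9 CPM in wild-type testes and 154, 238 and 244 CPM in Dmrt1+/- testes, and Cyp11a1, which cuts its side chain, at 381, 218 and 147 CPM in wild-type testes and 225, 452 and 249 CPM in Dmrt1+/- testes. All Dmrt1+/- values lay within the wild-type range but that of Cyp11a1 in replicate 2. Prlr, the prolactin receptor, and Hsd3b6, a steroid dehydrogenase, also overlapped, with log2 fold changes of 0.62 and 0.90.

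Of 11 stromal genes tested, 6 were higher and 0 lower at an unadjusted p below 0.05 (1 and 0 without replicate 3; median log2 fold change 0.63, or 0.57 without it). Over all genes 11.7% were higher and 6.32% lower (5.67% and 2.36% without replicate 3). Pdgfra, a receptor of fetal and adult interstitial cells, was at 133, 73.8 and 92.0 CPM in wild-type testes and 136, 215 and 179 CPM in Dmrt1+/- testes (log2 fold change 0.82), with wild-type replicate 1 and Dmrt1+/- replicate 1 nearly equal. Col3a1, a fibrillar collagen, was measured at 195, 127 and 131 CPM in wild-type testes and 191, 261 and 279 CPM in Dmrt1+/- testes and overlapped. The 15 macrophage genes had 4 higher and 0 lower, against 11.7% of all genes higher, or 2 and 0 without replicate 3 (median 0.46), with Ptprc, the pan-leukocyte antigen CD45, at 4.07, 2.45 and 2.58 CPM in wild-type testes and 4.98, 7.36 and 6.67 CPM in Dmrt1+/- testes and Cx3cr1, a chemokine receptor, at 32.4, 26.7 and 17.2 CPM in wild-type testes and 39.3, 42.1 and 59.9 CPM in Dmrt1+/- testes. Both were higher in all Dmrt1+/- testes, while the library medians of the list overlapped. Of 13 endothelial genes 2 were higher and 0 lower, Cdh5 (VE-cadherin, log2 fold change 0.76) and Pecam1 (CD31, 0.75), a share close to the 11.7% of all genes, and the list's median was 0.10. Peritubular myoid genes numbered 11, of which 2 were higher and 1 lower, close to the 11.7% and 6.32% of all genes, with a median of 0.37. Without replicate 3, 0 were higher and 0 lower.

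Germ cell lists differed by stage. Library medians of differentiating spermatogonial markers were higher in each Dmrt1+/- testis, those of early meiotic markers overlapped and those of later stages were lower, with replicate 3 the farthest from wild-type. Over the 10 differentiating spermatogonial genes tested the median log2 fold change was 0.64 (0.28 without replicate 3), with 5 higher and 0 lower at an unadjusted p below 0.05 (1 and 0 without it). Over all genes 11.7% were higher and 6.32% lower (5.67% and 2.36% without replicate 3). The summed level of this list, in which Dmrtb1 has the largest share, pointed the other way, at 696, 805 and 681 CPM in wild-type and 688, 584 and 612 CPM in Dmrt1+/- testes. The 25 early meiotic genes had a median of -0.06 (0.01 without replicate 3), whose sign changed between settings. Medians from pachytene on were -0.50 over 17 genes, -0.52 over 19 round spermatid genes and -0.53 over 22 elongating spermatid genes. Without replicate 3 these 3 were -0.33, -0.32 and -0.17.

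In the undifferentiated stage 2 of 11 genes were higher and 0 lower at an unadjusted p below 0.05, close to the 11.7% of all genes that were higher (2 and 0 without replicate 3, against 5.67%). Lin28a, an RNA-binding protein of the transit-amplifying spermatogonia, stood at 6.21, 9.80 and 7.10 CPM in wild-type testes and 16.7, 11.99 and 21.2 CPM in Dmrt1+/- testes (log2 fold change 1.11, SE 0.29, adjusted p = 0.179, edgeR), with no overlap. Zbtb16, the stem cell factor PLZF, was at 23.3, 14.8 and 15.2 CPM in wild-type testes and 21.9, 30.1 and 23.8 CPM in Dmrt1+/- testes and overlapped. Pou5f1 (OCT4) pointed the other way, at 6.10, 5.03 and 7.75 CPM in wild-type testes and 4.98, 4.52 and 2.11 CPM in Dmrt1+/- testes, so the list was not uniform.

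Stra8, which licenses meiosis in response to retinoic acid and which DMRT1 is known to repress, was measured at 6.42, 5.16 and 9.82 CPM in wild-type testes and 9.79, 12.3 and 13.9 CPM in Dmrt1+/- testes (log2 fold change 0.75). Dmrt1+/- replicate 1 lay just inside the wild-type range. Sohlh2, a transcription factor of differentiating spermatogonia, stood at 10.9, 11.3 and 14.2 CPM in wild-type testes and 13.2, 18.5 and 25.9 CPM in Dmrt1+/- testes (log2 fold change 0.66, or 0.38 without replicate 3), and overlapped too. Ccnd2, a cyclin of the first cell cycle phase that somatic cells also express, was at 73.1, 51.6 and 48.2 CPM in wild-type testes and 92.9, 117 and 113 CPM in Dmrt1+/- testes (log2 fold change 0.90) and reached a mean of 438 CPM in Dmrt1-/- gonads. Dmrtb1, a DM domain gene that acts at the step from mitosis to meiosis, was lower in all Dmrt1+/- testes, at 509, 628 and 526 CPM in wild-type testes and 466, 327 and 284 CPM in Dmrt1+/- testes (log2 fold change -0.63).

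At the start of meiosis, Prdm9, which places recombination hotspots, was measured at 13.1, 15.0 and 20.5 CPM in wild-type testes and 29.4, 17.3 and 27.7 CPM in Dmrt1+/- testes, and Dmc1, the recombinase of meiotic strand exchange, at 15.6, 15.9 and 21.4 CPM in wild-type testes and 30.9, 22.5 and 24.9 CPM in Dmrt1+/- testes. Of this pair, Dmc1 did not overlap (log2 fold change 0.57, against 0.62 for Prdm9). Stag3, a meiotic cohesin, and Mael, a factor of piRNA bodies, were on the lower side, with log2 fold changes of -0.45 and -0.51.

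From the pachytene stage on, the sign was negative. Of the 17 pachytene genes 0 had a positive log2 fold change, 0 were higher and 3 lower at an unadjusted p below 0.05, against 6.32% of all genes lower (0 and 0 without replicate 3). Their sum was 9383, 11065 and 9826 CPM in wild-type testes and 8635, 6948 and 4991 CPM in Dmrt1+/- testes, lower in each of the latter. Ybx2, which stores messenger RNA in germ cells, stood at 1338, 2100 and 1324 CPM in wild-type testes and 1178, 878 and 822 CPM in Dmrt1+/- testes (log2 fold change -0.73). Piwil1, the PIWI protein of pachytene piRNAs, was at 389, 557 and 499 CPM in wild-type testes and 451, 215 and 173 CPM in Dmrt1+/- testes, with replicate 1 inside the wild-type range and replicates 2 and 3 well below it. Hspa2, a chaperone of spermatocytes, was at a log2 fold change of -0.58 and overlapped.

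Round spermatid genes had 0 higher and 2 lower of 19, near the 6.32% of all genes that were lower (0 and 0 without replicate 3), and Crem, the activator of the postmeiotic program, was measured at 161, 213 and 157 CPM in wild-type testes and 129, 155 and 82.0 CPM in Dmrt1+/- testes (log2 fold change -0.54, or -0.33 without replicate 3). Acr, the acrosomal protease acrosin, stood at 156, 239 and 173 CPM in wild-type testes and 141, 105 and 99.8 CPM in Dmrt1+/- testes, and Actl7b, an actin-like protein of the spermatid head, at 603, 1017 and 598 CPM in wild-type testes and 487, 457 and 417 CPM in Dmrt1+/- testes. All 3 were lower in every Dmrt1+/- testis. The library medians of the list were -0.44, -0.16 and -1.01 in Dmrt1+/- testes, as log2 differences from the wild-type mean.

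Elongating spermatid genes split the Dmrt1+/- testes. Prm1, the protamine that replaces histones in sperm, was at 4224, 3206 and 2834 CPM in wild-type testes and 2884, 5223 and 705 CPM in Dmrt1+/- testes, and Tnp1, the transition protein that precedes it, at 3465, 2109 and 2587 CPM in wild-type testes and 2505, 3759 and 381 CPM in Dmrt1+/- testes. Replicate 2 was above all wild-type testes and replicate 3 far below any other testis, so that the log2 fold change of Prm1 was -0.22 with and 0.24 without replicate 3, and that of Tnp1 -0.30 and 0.20. Of the 22 genes of this list 3 were lower and 0 higher at an unadjusted p below 0.05, against 6.32% of all genes lower, and 0 in either direction without replicate 3. Tssk1, a kinase of late spermatids, was measured at 368, 436 and 359 CPM in wild-type testes and 298, 276 and 174 CPM in Dmrt1+/- testes (log2 fold change -0.64), and Akap3, an anchor protein of the sperm tail, at 1048, 1419 and 1223 CPM in wild-type testes and 1075, 741 and 458 CPM in Dmrt1+/- testes. Gapdhs, the sperm form of a glycolytic enzyme, was at a log2 fold change of -0.71, or -0.39 without replicate 3.

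A germ cell gene set was also defined from other libraries of the series. The 906 tested genes that were under 0.1 CPM in every Dmrt1-/- P28 gonad and every library of Sertoli cells at postnatal day 7, 9 libraries in all, held 0.377%, 0.357% and 0.381% of the counts of wild-type testes and 0.318%, 0.375% and 0.190% of those of Dmrt1+/- testes. Replicate 2 lay within the wild-type range, replicate 1 below it and replicate 3 the lowest (exact two-sided permutation test, p = 0.2, 3 against 3). Prm1 and Tnp1 are not in this set, since they were at means of 5.90 and 5.06 CPM in Dmrt1-/- gonads. The set's median log2 fold change was -0.48, or -0.19 without replicate 3.

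Over all autosomal genes, the difference between the genotypes followed the level of a gene in Dmrt1-/- gonads, in which late germ cell transcripts were near 0. Genes under 0.1 CPM in those gonads had a median log2 fold change of -0.51, and 9.45% of the 3026 genes were positive. The median was -0.44 from 0.1 to 1 CPM, -0.04 from 1 to 10 CPM, 0.10 from 10 to 100 CPM and 0.24 at 100 CPM and over, where 72.6% of 2036 genes were positive. Without replicate 3 these ends were -0.24 and 0.19. The part of the mix of cells in the differences of single genes was not tested.

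**Figure D3:**
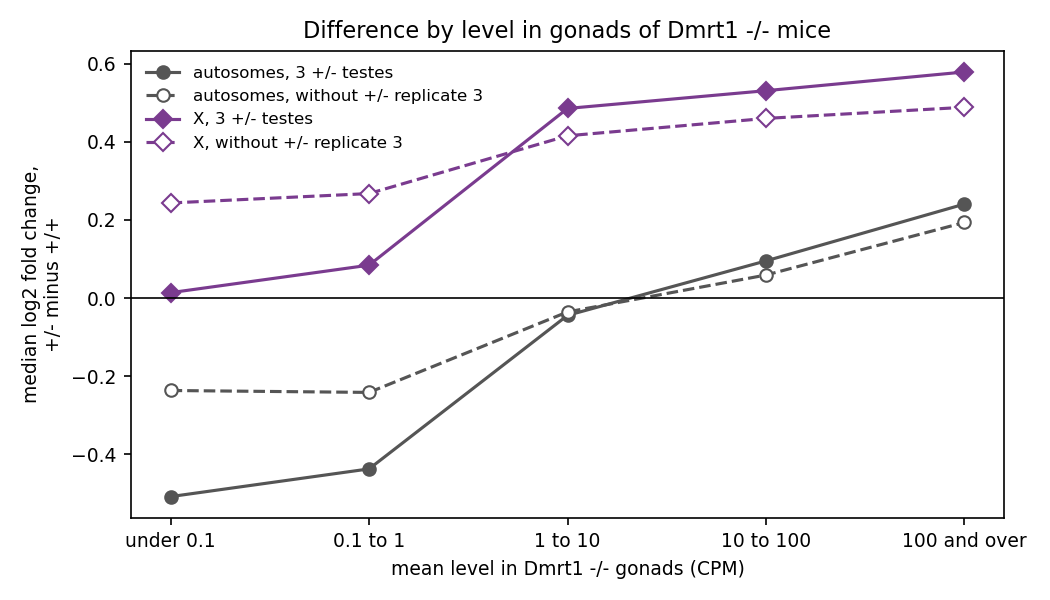
Median log2 fold change between Dmrt1+/- and wild-type testes (y axis) for genes grouped by their mean CPM in Dmrt1-/- gonads (x axis), for autosomes (circles) and the X chromosome (diamonds), with all 3 Dmrt1+/- testes (solid) and without replicate 3 (dashed). Autosomal medians run from -0.51 to 0.24, and X-linked medians lie above them in every class.

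Genes of the X chromosome stood higher in Dmrt1+/- testes than those of any of the 19 autosomes. Its 841 tested genes had a median log2 fold change of 0.46, while autosomal medians ran from -0.13 to 0.01. At an unadjusted p below 0.05, 297 X-linked genes were higher and 3 lower, 35.7% of the X against 13.2% to 19.2% of each autosome. Without replicate 3 the X median was 0.39 and 23.3% of its genes passed, against 5.50% to 9.81% of the autosomes. Library medians of X-linked genes, as log2 differences from the wild-type mean, were 0.14, -0.11 and -0.07 in wild-type testes and 0.25, 0.52 and 0.50 in Dmrt1+/- testes, with no overlap. X-linked transcripts were 2.14%, 1.70% and 1.85% of the counts in wild-type testes and 2.31%, 2.77% and 2.74% in Dmrt1+/- testes.

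As background, the X chromosome is silenced in pachytene spermatocytes and largely kept low in spermatids, so that somatic cells and spermatogonia supply much of its messenger RNA in a testis. Within classes of level in Dmrt1-/- gonads, X-linked genes lay above autosomal genes. These classes do not match how much germ cells add to a gene's level in a testis. The part of the mix of cells in this difference was not tested. Of 87 X-linked genes at 100 CPM and over there, 100% had a positive log2 fold change, with a median of 0.58, against 0.24 for autosomal genes of that class. Under 0.1 CPM the medians were 0.01 on the X and -0.51 on autosomes.

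Rps6ka3, the kinase RSK2, stood at 38.4, 37.3 and 34.9 CPM in wild-type testes and 60.9, 55.4 and 70.3 CPM in Dmrt1+/- testes (log2 fold change 0.76, SE 0.13, adjusted p = 0.173, edgeR). Jade3, a chromatin protein, was at 71.7, 69.0 and 84.7 CPM in wild-type testes and 122, 116 and 152 CPM in Dmrt1+/- testes (log2 fold change 0.79), and Ints6l, a gene related to a subunit of the Integrator complex, at 43.7, 38.8 and 36.2 CPM in wild-type testes and 63.7, 62.9 and 72.2 CPM in Dmrt1+/- testes (log2 fold change 0.74). These 3 X-linked genes were among the 10 with the smallest p in the higher direction. Each was higher in all Dmrt1+/- testes, as the choice of these 10 required. Of 8 Y-linked genes of the list, 4 were higher and 0 lower at an unadjusted p below 0.05, with Kdm5d, a histone demethylase, at 18.9, 8.64 and 15.1 CPM in wild-type testes and 19.3, 25.6 and 25.9 CPM in Dmrt1+/- testes and Uty, a paralog of the demethylase Kdm6a, at a log2 fold change of 0.62. Over all 67 tested genes of the Y chromosome the same number passed, 4 higher and 0 lower (5.97%, against 18.0% of all genes), 31.3% were positive, and the median log2 fold change was -0.10, or 0.13 without replicate 3.

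**Figure D4:**
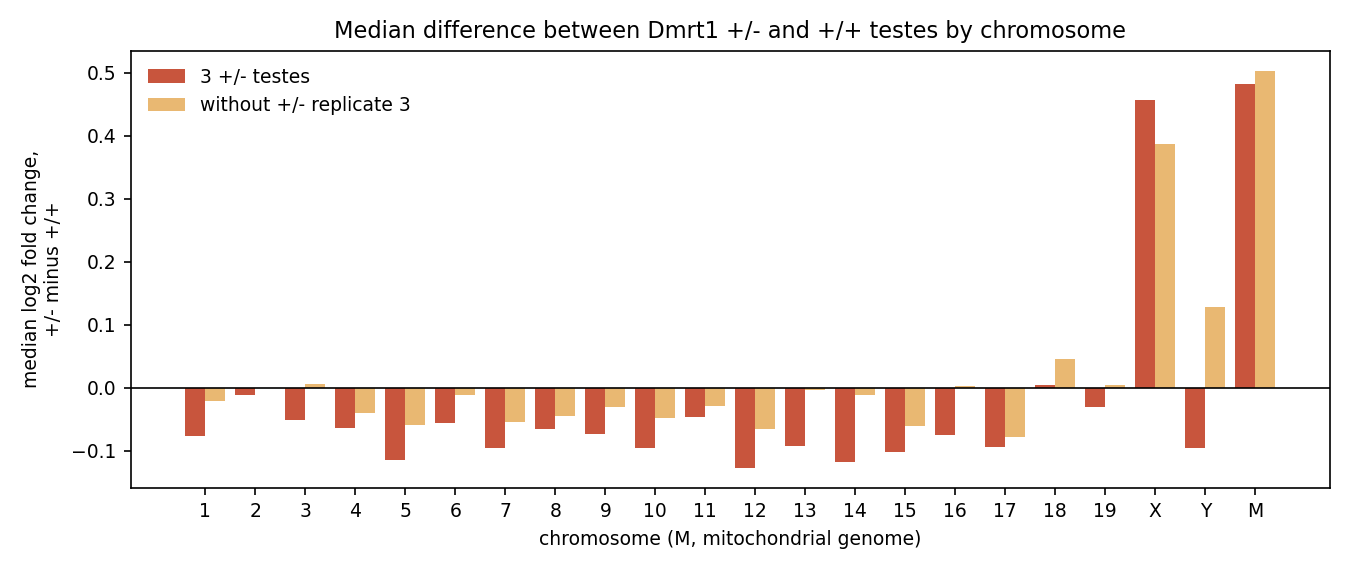
Median log2 fold change (y axis, Dmrt1+/- minus wild-type) of the tested genes of each chromosome (x axis), with all 3 Dmrt1+/- testes in red and without replicate 3 in yellow. Autosomes lie between -0.13 and 0.05, the Y chromosome changes sign, and the X chromosome (0.46 and 0.39) and the mitochondrial genome (0.48 and 0.50) lie above them.

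Transcripts of the mitochondrial genome were also higher. They held 3.41%, 2.66% and 2.77% of the counts in wild-type testes and 4.16%, 5.13% and 5.34% in Dmrt1+/- testes, with no overlap. Of 18 genes tested, 9 were higher and 0 lower at an unadjusted p below 0.05, against 11.7% and 6.32% of all genes. The median log2 fold change was 0.48 (0.50 without replicate 3). mt-Co1, a subunit of cytochrome oxidase, was measured at 16119, 12280 and 13255 CPM in wild-type testes and 19188, 22254 and 21091 CPM in Dmrt1+/- testes (log2 fold change 0.59).

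Around Dmrt1 itself, the share of genes at an unadjusted p below 0.05 was 11.1% of 9 genes within 1 Mb, 14.1% of 71 within 5 Mb, 15.9% of 126 within 10 Mb and 19.4% of 418 within 20 Mb, against 18.0% of all genes. Without replicate 3 these shares were 22.2%, 5.63%, 8.73% and 10.5%, against 8.03%, so they lay on either side of that of all genes. Kank1, the neighbour whose start lies 0.269 Mb before that of Dmrt1 and which organizes cell adhesion, stood at 38.3, 48.9 and 40.2 CPM in wild-type testes and 55.9, 60.3 and 70.8 CPM in Dmrt1+/- testes (log2 fold change 0.55), with no overlap. Dmrt3, the next DM domain gene, was at 1.177, 1.16 and 0.904 CPM in wild-type testes and 0.350, 0.421 and 2.20 CPM in Dmrt1+/- testes, and its log2 fold change was -0.10 with and -1.48 without replicate 3. Of the DM domain genes elsewhere, Dmrtc1a on the X was higher (0.58) and Dmrtc2 lower (-0.55) in each Dmrt1+/- testis, without passing the threshold.

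**Figure D5:**
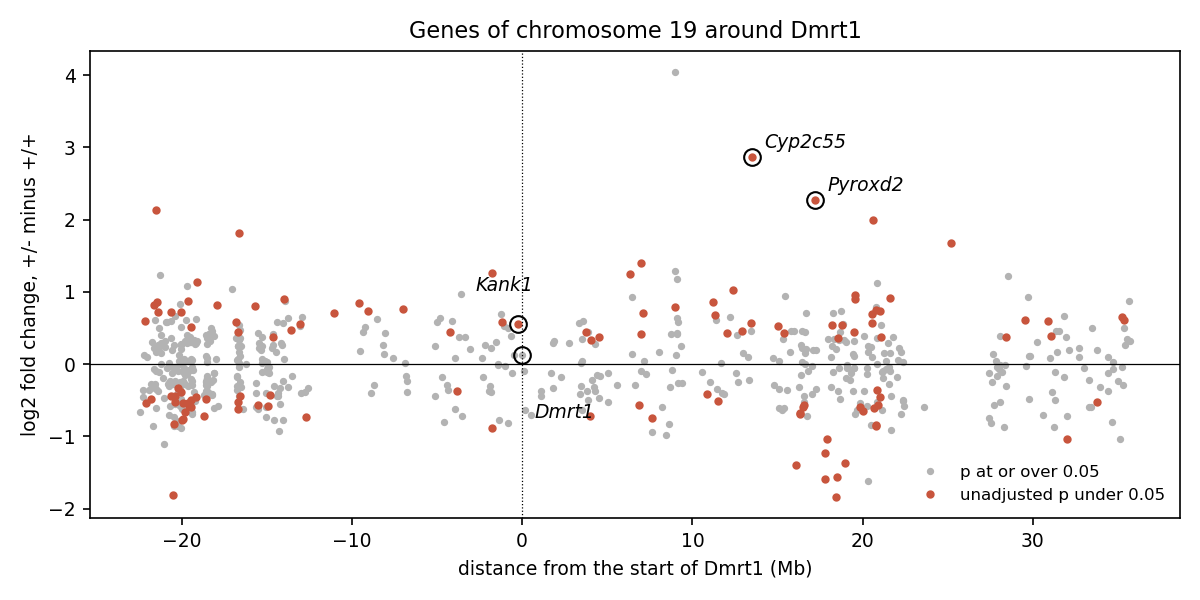
Each point is a tested gene of chromosome 19, at its distance in Mb from the start of Dmrt1 (x axis) and its log2 fold change (y axis), red where the unadjusted p was under 0.05. Circles mark Dmrt1, Kank1, Cyp2c55 (13.5 Mb away) and Pyroxd2 (17.2 Mb away).

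On chromosome 15, Pheta2 and Ttll1 lie in a stretch of 5 Mb, from 80 to 85 Mb, in which 12 of 94 genes (12.8%) were lower at an unadjusted p below 0.05 without replicate 3, against 2.36% of all genes. The bin from 80 to 85 Mb of chromosome 10 held 14 such genes (10.9%). These bins were looked at after the positions of the named genes were known. Of 487 bins with at least 10 tested genes, they ranked 2 and 1 by this same count. They are therefore extremes picked from these data, and whether they exceed other bins was not tested. The count on chromosome 15 includes Pheta2 and Ttll1, which were themselves named for a small p.

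Of 12 retinoic acid genes, 2 were higher and 0 lower at an unadjusted p below 0.05, close to the 11.7% of all genes higher. Without replicate 3, 0 passed in either direction. In this list 11 log2 fold changes were positive and 1 negative, with a median of 0.56 (0.37 without replicate 3). Its library medians, as log2 differences from the wild-type mean, did not overlap. They were -0.02, 0.08 and -0.15 in wild-type testes and 0.28, 0.42 and 0.85 in Dmrt1+/- testes. Cyp26b1, the enzyme that breaks retinoic acid down in the tubule wall, was measured at 272, 216 and 175 CPM in wild-type testes and 239, 421 and 395 CPM in Dmrt1+/- testes, and Aldh1a2, an enzyme that makes it in germ cells, at 92.9, 107 and 92.9 CPM in wild-type testes and 87.7, 61.4 and 63.6 CPM in Dmrt1+/- testes. Aldh1a2 did not overlap between the genotypes and Cyp26b1 did (log2 fold changes -0.46 and 0.67). Cell cycle genes split as well: Mcm2, of the replication helicase, was at 0.75 (0.45 without replicate 3) and Plk1, a kinase of division, at -0.64, and neither overlapped between the genotypes. Epididymis and fat markers and the 2 strain-marker genes tested gave 0 genes in either direction, so that these lists showed no difference at this depth. Hemoglobin and other erythroid genes gave 0 of 5.

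Some transcripts were present in some testes and nearly missing in others, whatever the genotype. With a step of at least 16-fold between neighbouring values and at least 1 CPM above it, 28 genes were found among the 6 testes. In 20 of them Dmrt1+/- replicate 3 alone was low, and 18 of these were under 1 CPM in Dmrt1-/- gonads. No step separated the genotypes, and 1, that of Gm9050, set Dmrt1+/- replicates 1 and 2 against the other 4 testes. Gm15446, chosen here for its values, was at 19.7 CPM in replicate 3 and at 0 to 0.129 CPM in the other 5 testes.

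Across the alternative settings, the direction of the main lists held relative to the median of all genes. Settings that change only the scaling move all genes by about the same amount, so they could hardly alter these differences. Dropping the limit on the fold could not alter them either. The Sertoli list was at 0.72 and stayed between 0.44 and 0.87 over 24 alternative settings. The pachytene list was at -0.45 (between -0.70 and -0.31), and the elongating spermatid list at -0.47 (between -0.72 and -0.16). Of the 26 lists, the library medians of 8 were higher in all Dmrt1+/- testes, 3 lower in all, and 15 overlapped.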

How the data were processed

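Whole gonads at postnatal day 28 were profiled by stranded mRNA sequencing. The authors trimmed reads with Trim Galore 0.6.0 and cutadapt, aligned them to GRCm38 with STAR 2.7.2a and counted reads strand-specifically per GENCODE M25 gene with Rsubread, and the deposited values are raw counts with no normalization. Positions were taken from GENCODE M21 of the same build, which held 99.5% of the 55401 gene identifiers.

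Genes kept by filterByExpr were scaled with TMM factors and tested with edgeR 4.0.16 (quasi-likelihood test, Benjamini-Hochberg adjustment) in R 4.3.3 over the 12 libraries of 4 genotypes, with Dmrt1+/- minus wild-type as the contrast. Alternatives used DESeq2 1.42.0 and limma 3.58.1. No technical batch is given in the labels.

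The comparison and all 26 gene lists were chosen with earlier results of these data known. The genes named were Dmrt1, all called genes, the 10 genes in each direction with the smallest p that did not overlap between the groups (mean of at least 5 CPM, predicted genes passed over) in the fits with and without Dmrt1+/- replicate 3, up to 4 genes per list by smallest p, and genes that the study discusses. Tnp1, Prm1, Cldn11, Amh, Star, Cyp11a1, Dmrt3, Dmrtb1 and mt-Co1 were added after their values were seen, as were the chromosome, step and Dmrt1-/- level summaries.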

Additional observations from a re-analysis of the deposited data

How the results depend on the processing

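Depth limits genes of a few counts, such as Foxl2 and Esr2, and 3 libraries a group limit all others. Of 24 alternative settings, 15 called 0 genes in each direction. DESeq2 called 28 higher and 5 lower, omission of the filter on low counts 252 and 18, and factors from the Sertoli list 13 and 2330, where the scaling itself lowers all other genes. Without Dmrt1+/- replicate 3 there were 1 and 2, with or without a limit on the fold, and further 2 and 2 with only the 5 libraries compared, 7 and 8 with DESeq2, 42 and 9 with no filter, and 1 and 5 with Sertoli factors. Leaving out any of the other libraries called 0 and 0, so the range was 0 to 1 higher and 0 to 2 lower.

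Residual correlations of wild-type and Dmrt1+/- libraries of the same replicate number were -0.44, -0.23 and -0.22. Libraries of unlike number ran as high as 0.44, for wild-type replicate 3 with Dmrt1+/- replicate 1. The shared numbers thus gave no sign of a pairing, but with 3 libraries a group these correlations cannot exclude one. With a replicate block 0 genes were called in each direction, the smallest adjusted p in edgeR was 0.266, and the log2 fold change of Dmrt1 was 0.09.

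The log2 fold change of Dmrt1 turned negative with sample quality weights in limma-voom (-0.12), with factors from macrophage, endothelial, myoid and stromal lists (-0.30) and with factors from the Sertoli list (-0.57). Without replicate 3 it was -0.23, and then -0.21 with 5 libraries, -0.29 with DESeq2, -0.19 with no filter and -0.68 with Sertoli factors. Over the omission of each library it ran from -0.23 to 0.32. None of its adjusted p-values passed 0.05.

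Prm1 and Tnp1 turned positive without replicate 3, at 0.24 and 0.20, and at 0.25 and 0.22 with 5 libraries, 0.18 and 0.14 with DESeq2, and 0.27 and 0.23 with no filter. Over the omission of each library Prm1 ran from -0.92 to 0.24 and Tnp1 from -0.91 to 0.20.

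Low genes changed sign more widely. Foxl2 was at -0.039 with limma-voom, -0.26 with sample quality weights, -0.12 with the somatic factors, -0.47 with Sertoli factors (-0.36 without replicate 3), and from -0.29 to 0.79 over the omission of each library. Esr2 was at 0.085 with no filter and 0.17 with library size only, and from -0.72 to 0.98 over the omissions. Dmrt3 was at 0.021 and 0.12 in these settings, and from -1.48 to 0.31 over the omissions. Cyp11a1 was at -0.078 with the somatic factors and from -0.065 to 0.76 over the omissions.

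With Sertoli factors, which move the median of all genes to -0.67, other genes turned negative: Sox8 (-0.16), Prlr (-0.0096), Zbtb16 (-0.12), Sohlh2 (-0.035), Prdm9 (-0.025), Dmc1 (-0.052), Gja1 (-0.055), Kank1 (-0.094), Dmrtc1a (-0.089), Uty (-0.00695), Star (-0.21), Cyp11a1 (-0.28) and mt-Co1 (-0.042). The same factors without replicate 3 gave Sox8 -0.19, Amh -0.28, Sohlh2 -0.10, Kank1 -0.012, Dmrtc1a -0.055, Mcm2 -0.0061, Cldn11 -0.019, Star -0.14 and Cyp11a1 -0.028. Gm15446, named for its step, was at 6.18 with and -0.63 without replicate 3. All other named genes kept their sign in all settings.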
